A study of Mus musculus with 9 samples.

Results

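The genes described here are 50 genes of mitosis, the kinetochore and condensin, chosen by name from the 24505 genes of the count table. They cover the spindle assembly checkpoint, the Aurora kinases and the chromosomal passenger complex, centromere and outer kinetochore proteins, regulators of mitotic entry and exit, the spindle and cytokinesis, and chromosome structure. Cyclins, kinesins and polo-like kinases were left out of the choice. All 50 had a row in the table, and all 50 passed the filter on low counts in each of the 3 comparisons, although Aurkc was low, at 0 to 5.89 CPM (counts scaled to library size), in the 9 libraries.

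The 9 libraries came from EGFP-positive germ cells of Uchl1-eGfp mouse testes, with 3 libraries in each group. All animals received bis-(dichloroacetyl)-diamine, an inhibitor of retinoic acid (RA) synthesis, from P1, and a single injection of RA at P11, which starts spermatogonia differentiation in synchrony. In/B spermatogonia (intermediate and type B) were isolated at P17, and preleptotene (PL) spermatocytes, the first cells of meiosis, at P19. In RA-sufficient animals no inhibitor was given after the injection, whereas in RA-deficient animals its dosing went on so that RA was not made again. The inhibitor was dosed at 100 µg per g of body weight, and the RA was given as 10 µl at 10 µg/µl. The mice carried EGFP under the Uchl1 promoter on a mixed C57BL/6 and CD-1 background, so the gate on EGFP depends on how active that promoter is in each cell. In/B spermatogonia were sorted as EGFP-bright cells and PL spermatocytes as EGFP-dim cells. Between In/B and PL, the gate therefore cannot be told apart from stage and age. The paper describes its In/B spermatogonia at P17 as RA-sufficient. The inhibitor given after P11 is thus a further difference between In/B and RA-deficient PL, and cannot be told apart from these. Each preparation pooled the testes of at least 5 pups of a litter. No untreated animals were among these libraries.

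Mitosis and meiosis use much of the same machinery. During mitotic prometaphase, the kinetochore forms on centromeric chromatin that carries CENP-A, the NDC80 complex of the outer kinetochore holds the microtubules, and the chromosomal passenger complex with Aurora B corrects wrong attachments. The spindle assembly checkpoint holds back the anaphase-promoting complex (APC/C) until every kinetochore is attached, after which CDC20 and UBE2C drive the destruction of securin (PTTG1), and separase (ESPL1) cuts cohesin. Type B spermatogonia carry out the last mitosis before meiosis, and PL spermatocytes carry out the last DNA replication before the long meiotic prophase. Many mitotic genes share promoter elements, the cell cycle genes homology region (CHR, TTTGAA or TTTAAA) and the CCAAT box, through which the DREAM and MuvB complexes and NF-Y act.

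Promoter sequences were read to see which of these elements the members carry. RefSeq windows (GRCm38.p6, 250 bases before to 50 bases after the start) were given for 43 of the 50 members. The letters TTTGAA were found on either strand in 26 of 43 windows (60.5%), against 18.1% of the 27025 windows of all genes. TTTAAA was found in 7 of 43 (16.3%), against 13.2% of all windows, and the members with either element numbered 29 (67.4%), against 27.8%. CCAAT was found on either strand in 34 of 43 (79.1%), against 37.9%. TTTAAA reads the same on both strands, and a CCAAT can share its end base with the start of TTTGAA. The 150 bases before the start are printed below for genes on which the results turn, 5′ to 3′ on the strand of the gene, with the CHR letters and the CCAAT box in capitals, on the other strand as TTCAAA for the CHR and as ATTGG for the box. Ube2c, Cdc20, Cdk1 and Cenpa were lower in both PL groups than in In/B, and Espl1 was lower in the RA-sufficient group. Bub1, Cenpk and Cenpm were higher in both PL groups, and Top2a was higher in the RA-deficient group.
Ube2c, chr2:164769779-164769928, plus strand: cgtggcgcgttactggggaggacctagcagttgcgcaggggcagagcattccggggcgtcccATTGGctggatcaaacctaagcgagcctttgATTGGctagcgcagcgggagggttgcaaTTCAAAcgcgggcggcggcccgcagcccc
Cdc20, chr4:118437344-118437493, minus strand: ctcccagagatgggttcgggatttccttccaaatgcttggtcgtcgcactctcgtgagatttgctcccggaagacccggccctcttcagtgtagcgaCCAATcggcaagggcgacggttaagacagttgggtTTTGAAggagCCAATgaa
Cdk1, chr10:69352913-69353062, minus strand: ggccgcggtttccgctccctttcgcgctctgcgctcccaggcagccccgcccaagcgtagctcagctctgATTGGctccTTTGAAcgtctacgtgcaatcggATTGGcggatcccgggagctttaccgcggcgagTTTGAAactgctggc
Cenpa, chr5:30666736-30666885, plus strand: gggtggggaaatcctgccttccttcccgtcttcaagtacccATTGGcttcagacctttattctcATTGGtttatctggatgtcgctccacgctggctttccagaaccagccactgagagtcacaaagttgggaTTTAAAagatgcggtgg
Espl1, chr15:102296143-102296292, plus strand: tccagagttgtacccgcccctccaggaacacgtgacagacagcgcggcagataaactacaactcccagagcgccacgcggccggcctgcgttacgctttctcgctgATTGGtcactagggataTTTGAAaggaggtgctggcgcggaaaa
Bub1, chr2:127831860-127832009, minus strand: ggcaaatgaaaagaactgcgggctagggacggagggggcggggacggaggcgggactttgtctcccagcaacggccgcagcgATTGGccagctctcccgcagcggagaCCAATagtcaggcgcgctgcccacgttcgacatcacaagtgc
Cenpk, chr13:104228461-104228610, plus strand: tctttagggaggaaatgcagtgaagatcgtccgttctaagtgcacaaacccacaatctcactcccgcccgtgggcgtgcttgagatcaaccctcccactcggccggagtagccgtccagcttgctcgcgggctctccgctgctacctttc
Cenpm, chr15:82244337-82244486, minus strand: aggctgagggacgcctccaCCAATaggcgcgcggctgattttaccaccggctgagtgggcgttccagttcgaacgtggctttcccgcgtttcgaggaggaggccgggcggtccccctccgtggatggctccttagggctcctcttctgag
Top2a, chr11:99024190-99024339, minus strand: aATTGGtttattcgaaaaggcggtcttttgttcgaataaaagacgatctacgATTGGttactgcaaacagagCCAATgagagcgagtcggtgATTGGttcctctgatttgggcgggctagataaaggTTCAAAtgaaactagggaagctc
In this stretch a CHR element stands in capitals in Ube2c, Cdc20, Cdk1, Cenpa, Espl1 and Top2a, and in none of Bub1, Cenpk and Cenpm. These genes were picked for printing and do not stand for all members, whose shares by call are given further below.

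The libraries held 12612959 to 27042274 counts. Between 14769 and 18434 genes had at least 1 count, with the RA-deficient libraries lowest (14769 to 15327 genes). Values are read counts normalised to library size (CPM) after TMM scaling over all 9 libraries. The 4 germ cell markers (Ddx4, Dazl, Mael and Uchl1) summed to 4496 to 5573 CPM in In/B, 2270 to 2646 in RA-sufficient PL and 4185 to 5214 in RA-deficient PL. Of these, Uchl1 is the gene whose promoter drives the EGFP used for sorting. The 10 markers of meiotic entry summed to 1603 to 2651, 5483 to 7588 and 6844 to 8732 CPM in the same order. Sertoli cell markers (9 of 10 listed were in the table) summed to 68.7 to 355 CPM in In/B, 2888 to 3778 in RA-sufficient PL and 287 to 515 in RA-deficient PL. Clu made up most of this sum, and Fshr, which defines Sertoli cells, was at 25.8, 18.1 and 16.2 CPM in RA-sufficient PL and at 0, 0 and 0.874 in RA-deficient PL. Leydig cell, stromal and blood cell markers stayed below 150 CPM in sum in every library. The 9 markers of undifferentiated spermatogonia summed to 477, 268 and 267 CPM in In/B. In RA-sufficient PL this sum was 167, 266 and 248, and in RA-deficient PL it was 377, 318 and 443. The 8 markers of differentiating spermatogonia summed to 1856, 1625 and 1542 CPM in In/B, 827, 426 and 432 in RA-sufficient PL and 1907, 1868 and 525 in RA-deficient PL. The first and second RA-deficient libraries were thus just above the In/B libraries in this sum, and the third was within the RA-sufficient range. Among these markers Kit, the receptor of differentiating spermatogonia, was at 404, 327 and 331 CPM in In/B, 40.99, 32.8 and 20.2 in RA-sufficient PL and 561, 521 and 20.3 in RA-deficient PL, and Dmrt1, a factor of mitotic spermatogonia, was at 711, 538 and 534 CPM in In/B, 72.1, 76.8 and 72.8 in RA-sufficient PL and 460.2, 485 and 111 in RA-deficient PL. The 8 markers of pachytene and later cells summed to 233, 355 and 329 CPM in In/B. In RA-sufficient PL this sum was 1865, 874 and 958, and in RA-deficient PL it was 610, 684 and 1237. The first RA-sufficient library thus stood apart in its group. In RA-deficient PL, 610 and 684 were below all RA-sufficient values, and 1237 was within their range. The part of these other cells and of these libraries in the results below was not tested, and where leaving out a library ended a call this is given beside the gene. In sorted bulk RNA, fewer cells that express a gene and less RNA per cell cannot be told apart.

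The first question was how the mitotic genes stood in PL spermatocytes relative to the spermatogonia before them. In RA-sufficient PL, 22 of 50 members fell and 5 rose (44.0% and 10.0%), while 19.3% of the 15001 genes tested fell and 26.1% rose. A gene is said to have fallen or risen when its log2 fold change was beyond 1 and its adjusted p was below 0.05 in the quasi-likelihood test of edgeR, Benjamini-Hochberg adjusted over all genes tested. The median log2 fold change of the members was -0.73, against 0.04 over all genes. For 33 members all RA-sufficient libraries lay below all In/B libraries (background 35.9% of genes), and for 5 all lay above (background 35.6%). In RA-deficient PL, 15 members fell and 7 rose, while 11.8% of the 14877 genes tested fell and 11.4% rose. Their median log2 fold change was -0.37, against 0.00 over all genes. The libraries did not overlap with In/B for 31 lower members (background 33.6%) and 13 higher members (background 21.05%). With totals alone in place of TMM scaling, 4 members rose and 20 fell in this comparison, while the median of all genes moved to -0.31. Of the 14877 genes tested 3885 were then called, against 3446 with TMM scaling. The same In/B libraries served both comparisons, so their values are given side by side and their likeness is not a result. Without the third RA-deficient library 6 members rose and 15 fell, and without the first RA-sufficient library 5 rose and 24 fell in the RA-sufficient comparison. Over all genes, 3995 of 15328 and 6837 of 15417 were called in these runs.

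**Figure D1:**
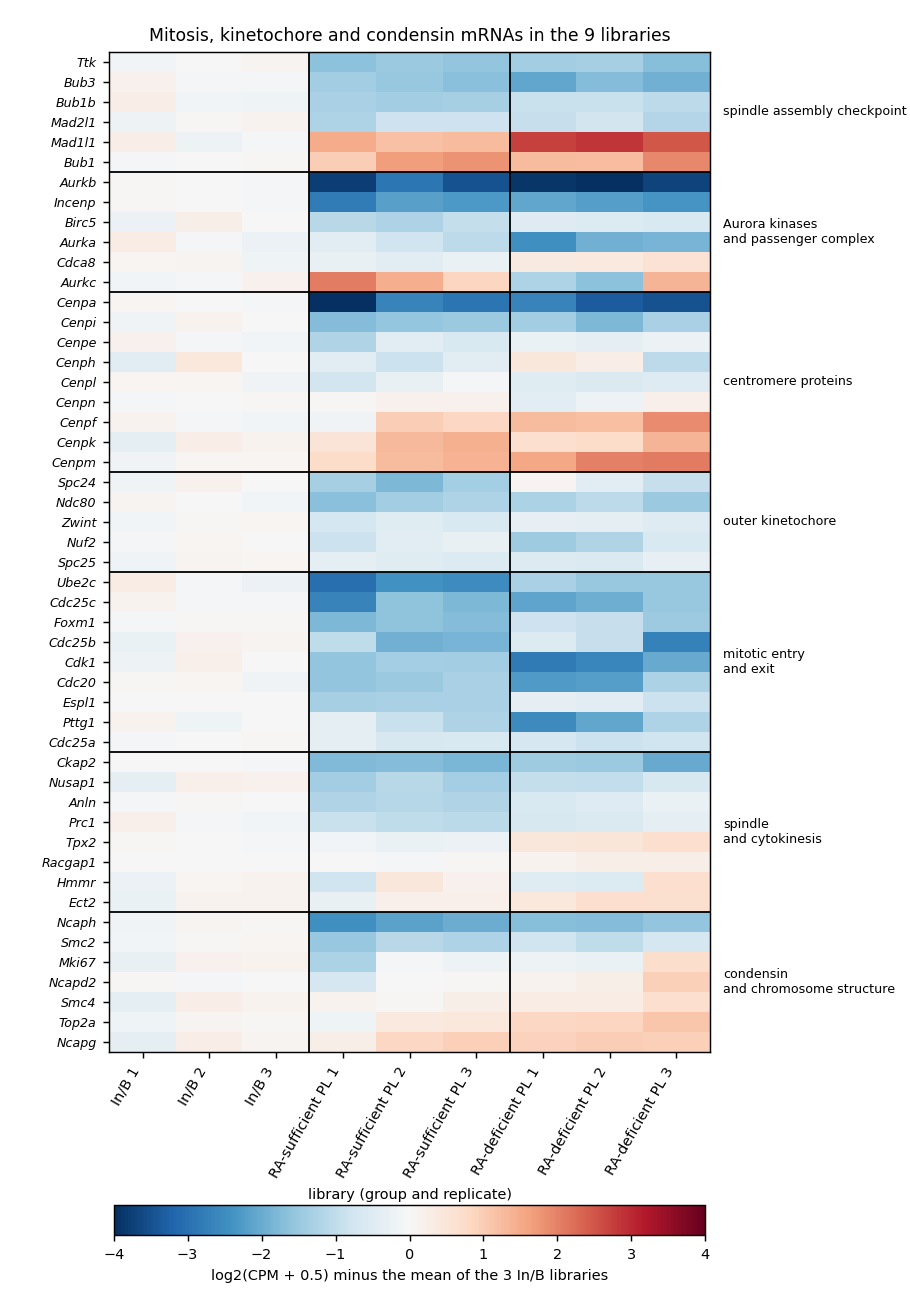
Level of each member in the 9 libraries (columns), as log2(CPM + 0.5) minus the mean of the 3 In/B libraries, with genes (rows) grouped by role. Blue marks levels below In/B and red above. Aurkb and Cenpa are dark blue in all 6 PL libraries, and Mad1l1 is the darkest red in the RA-deficient libraries.

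By calls in both comparisons, 13 members were lower in both PL groups: Aurkb, Bub3, Cdc20, Cdc25c, Cdk1, Cenpa, Cenpi, Ckap2, Incenp, Ncaph, Ndc80, Ttk and Ube2c. The 9 members called lower in the RA-sufficient group alone were Anln, Birc5, Bub1b, Cdc25b, Espl1, Foxm1, Nusap1, Smc2 and Spc24. Aurka and Pttg1 were called lower in the RA-deficient group alone. Bub1, Cenpk, Cenpm and Mad1l1 rose in both, Aurkc in the RA-sufficient group alone, and Cenpf, Ncapg and Top2a in the RA-deficient group alone. A call in a single group does not show that the PL groups differ, which is given by their direct comparison. The share of all genes with each pair of calls was not counted, so these numbers only list the members. The other 18 members passed in neither comparison.

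**Figure D2:**
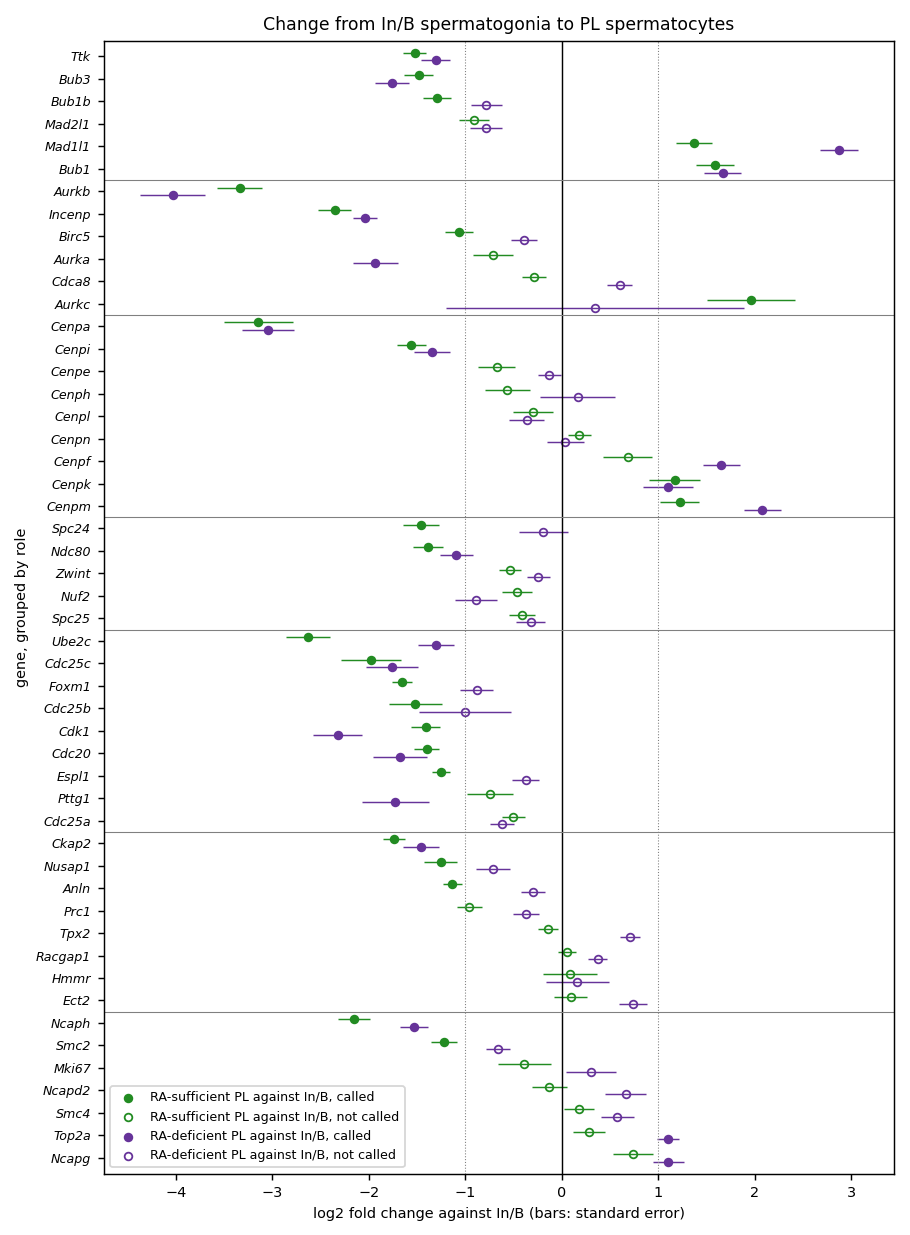
Log2 fold change of each member from In/B to RA-sufficient PL (green) and to RA-deficient PL (purple), with standard errors as bars, and genes grouped by role. Filled points were called (log2 fold change beyond 1, dotted lines, and adjusted p below 0.05). The 9 genes of mitotic entry and exit all lie left of 0, whereas Bub1 and Mad1l1 lie right of 1 in both groups.

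The counts by role are set against the shares of all genes, of which 19.3% fell and 26.1% rose in RA-sufficient PL, and 11.8% fell and 11.4% rose in RA-deficient PL. Of 9 genes of mitotic entry and exit, 7 fell and 0 rose in RA-sufficient PL (77.8% and 0%), and 5 fell and 0 rose in RA-deficient PL (55.6% and 0%). For all 9 the libraries of each PL group lay below In/B, as they did for 35.9% and 33.6% of all genes in the 2 comparisons. Their summed level was 1423, 1485 and 1456 CPM in In/B, 564, 559 and 548 in RA-sufficient PL and 795, 762 and 629 in RA-deficient PL. Cdk1, the kinase that drives entry into M phase, was at 67.04, 88.8 and 78.7 CPM in In/B, 25.5, 29.7 and 29.5 in RA-sufficient PL and 10.4, 12.3 and 18.97 in RA-deficient PL. All RA-deficient libraries lay below all RA-sufficient ones, which in turn lay below In/B. The log2 fold changes from In/B were -1.41 ± 0.15 (adjusted p = 9.12e-05) and -2.32 ± 0.26 (adjusted p = 0.000418). Among the phosphatases that activate CDK1, Cdc25c was at 27.8, 23.5 and 24.02 CPM in In/B, 3.53, 7.94 and 6.84 in RA-sufficient PL and 5.40, 6.14 and 8.35 in RA-deficient PL. It fell in both PL groups, with log2 fold changes of -1.98 ± 0.31 and -1.76 ± 0.27. Cdc25b was at 46.1, 63.2 and 60.6 CPM in In/B, 27.6, 14.4 and 15.2 in RA-sufficient PL and 37.9, 29.4 and 8.18 in RA-deficient PL. It fell in the RA-sufficient group (-1.52 ± 0.27), whereas in the RA-deficient group the third library was far below the other two and the change of -1.001 ± 0.48 had an adjusted p = 0.14. Cdc25a was at 142, 153 and 156 CPM in In/B, 113, 95.3 and 97.5 in RA-sufficient PL and 93.5, 82.1 and 85.3 in RA-deficient PL, and its differences from In/B passed the adjusted p but not the fold limit (-0.50 ± 0.12 and -0.62 ± 0.12).

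Foxm1, the transcription factor of many G2 and M phase genes, was at 416, 450.2 and 451 CPM in In/B, 126, 143 and 133 in RA-sufficient PL and 245, 234 and 158 in RA-deficient PL. The In/B libraries were highest and the RA-sufficient ones lowest, with the RA-deficient libraries between them and without overlap. Its log2 fold change was -1.66 ± 0.11 (adjusted p = 1.20e-05) in RA-sufficient PL and -0.88 ± 0.17 (adjusted p = 0.0052, short of the fold limit) in RA-deficient PL. Cdc20, the checkpoint's target and an activator of the APC/C, was at 137, 139.6 and 119.8 CPM in In/B, 44.1, 46.7 and 53.7 in RA-sufficient PL and 27.3, 28.2 and 55.00 in RA-deficient PL. It fell in both PL groups, with log2 fold changes of -1.40 ± 0.13 and -1.68 ± 0.28. Ube2c, which charges the APC/C with ubiquitin, was at 102, 78.7 and 70.3 CPM in In/B, 9.71, 15.2 and 13.98 in RA-sufficient PL and 33.1, 28.7 and 28.7 in RA-deficient PL. Its change from In/B was -2.63 ± 0.23 (adjusted p = 3.26e-05) in RA-sufficient PL and -1.30 ± 0.19 (adjusted p = 0.0015) in RA-deficient PL. Exons of Ube2c share 592 bases (22.77% of its exonic length in GENCODE M1, mm9) with Tnnc2 on the other strand, so part of its counts cannot be assigned with certainty. Pttg1, which encodes securin, was at 53.00, 42.9 and 48.9 CPM in In/B, 37.8, 25.5 and 20.3 in RA-sufficient PL and 7.88, 10.9 and 20.3 in RA-deficient PL. It fell in RA-deficient PL (-1.72 ± 0.35, adjusted p = 0.0064) and not beyond the fold limit in RA-sufficient PL (-0.74 ± 0.24). Espl1, which encodes separase, was at 433, 445 and 447 CPM in In/B, 177, 181 and 179 in RA-sufficient PL and 334, 330.4 and 246 in RA-deficient PL. The RA-sufficient libraries spanned a narrow range far below In/B (-1.25 ± 0.10, adjusted p = 2.05e-05), and the RA-deficient libraries lay between the other groups (-0.37 ± 0.14 from In/B, adjusted p = 0.067).

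In the chromosomal passenger complex, the kinase and its scaffold fell while the borealin gene was not called. Of the 6 genes of Aurora kinases and passengers, 3 fell and 1 rose in RA-sufficient PL (50% and 16.7%), and 3 fell and 0 rose in RA-deficient PL (50% and 0%). Aurkb, the kinase of the complex, was at 116, 113 and 108 CPM in In/B, 7.80, 14.6 and 9.53 in RA-sufficient PL and 7.08, 3.17 and 8.09 in RA-deficient PL. Every PL library was below every In/B library, and the changes of -3.34 ± 0.24 (adjusted p = 1.61e-05) and -4.03 ± 0.34 (adjusted p = 0.000135) were the lowest of all members in both comparisons. Incenp, the scaffold (its values are given because they were seen to be large), was at 423, 398 and 396 CPM in In/B, 57.7, 88.6 and 82.8 in RA-sufficient PL and 96.6, 88.00 and 79.1 in RA-deficient PL. Its log2 fold changes were -2.35 ± 0.17 in RA-sufficient PL and -2.04 ± 0.12 in RA-deficient PL, and it fell in both. Birc5, which encodes survivin, was at 118, 162 and 138 CPM in In/B, 63.4, 58.02 and 70.6 in RA-sufficient PL and 97.2, 95.3 and 90.4 in RA-deficient PL. It fell in RA-sufficient PL (-1.06 ± 0.14), short of the fold limit without the second In/B library (-0.97), and in RA-deficient PL the change was -0.39 ± 0.14 (adjusted p = 0.058). Cdca8, which encodes borealin, had log2 fold changes of -0.29 ± 0.12 and 0.60 ± 0.13, both within the fold limit.

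Aurka and Aurkc, the other Aurora kinases, had smaller changes than Aurkb. Aurka, the kinase of centrosomes and spindle poles, was at 119.6, 92.4 and 82.01 CPM in In/B, 70.9, 55.4 and 46.4 in RA-sufficient PL and 17.4, 25.1 and 26.1 in RA-deficient PL. It fell in RA-deficient PL (-1.93 ± 0.23, adjusted p = 0.000603), where every library was below the RA-sufficient ones, and by less than the fold limit in RA-sufficient PL (-0.71 ± 0.20, adjusted p = 0.013). Aurkc, the Aurora kinase of meiotic cells and gametes, was at 0.950, 0.983 and 1.24 CPM in In/B, 5.89, 3.76 and 2.34 in RA-sufficient PL and 0.160, 0 and 3.45 in RA-deficient PL. All RA-sufficient libraries were above In/B, at a low level, whereas in RA-deficient PL the second library had no count, which allows up to 3 counts, and the third was within the RA-sufficient range. Its change in RA-sufficient PL was 1.96 ± 0.46 (adjusted p = 0.005), a call lost when all 9 libraries were fitted together (adjusted p = 0.24). In RA-deficient PL it was 0.34 ± 1.54 (adjusted p = 0.89), and without the third library it had the opposite sign (-3.48).

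**Figure D3:**
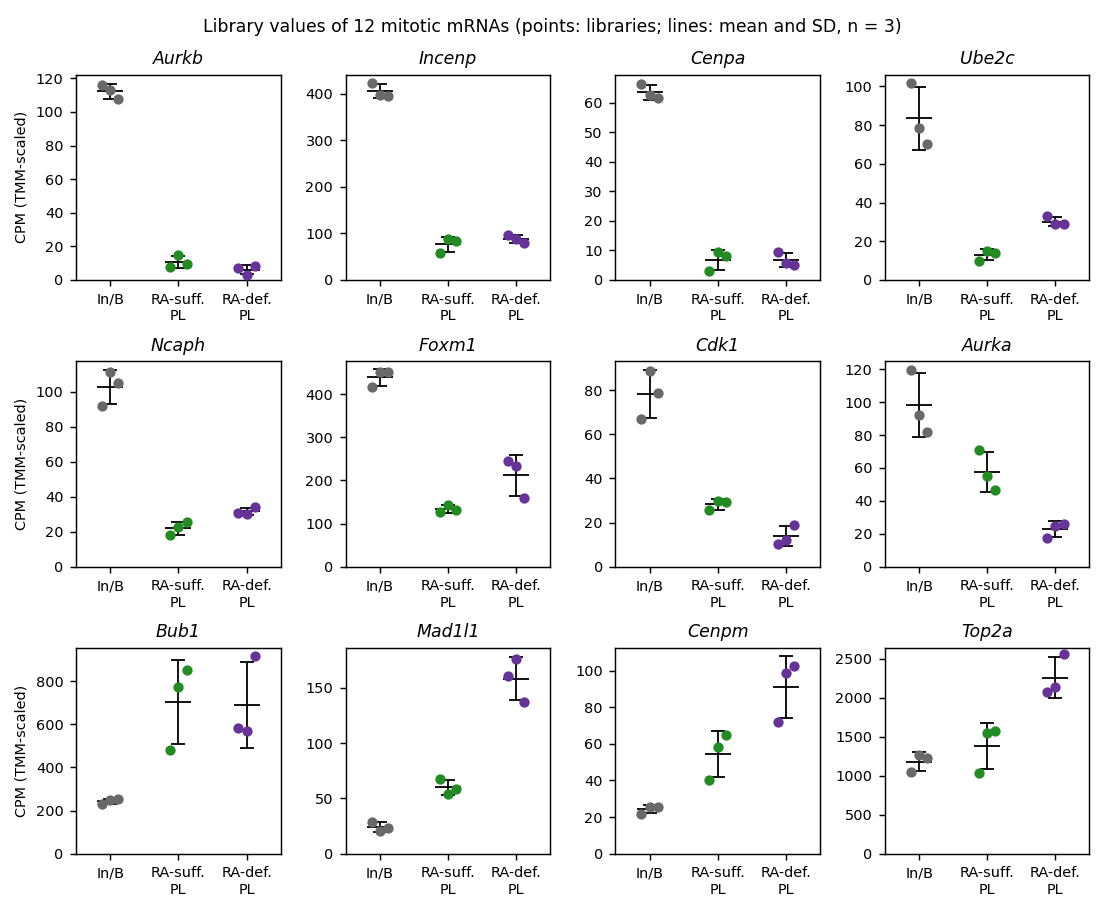
CPM of 12 members in each library (points, 3 per group), with the mean and SD as lines, on axes that start at 0. In Aurkb, Incenp, Cenpa and Ncaph both PL groups lie far below In/B, in Ube2c and Foxm1 the RA-deficient libraries lie between the others, and in Bub1, Mad1l1 and Cenpm both PL groups lie above In/B.

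Of 6 genes of the spindle assembly checkpoint, 2 rose and 3 fell in RA-sufficient PL (33.3% and 50%, against 26.1% and 19.3% of all genes). In RA-deficient PL 2 rose and 2 fell (33.3% each, against 11.4% and 11.8%). Bub1, a kinase that gathers checkpoint proteins at the kinetochore, was at 230.5, 248 and 252 CPM in In/B, 483, 774 and 852 in RA-sufficient PL and 582, 567 and 918 in RA-deficient PL. All PL libraries were above all In/B libraries, and the changes were 1.58 ± 0.20 (adjusted p = 0.000176) and 1.67 ± 0.19 (adjusted p = 0.000492). Mad1l1, which anchors MAD2 at unattached kinetochores, was at 29.1, 20.5 and 22.8 CPM in In/B, 67.6, 53.96 and 58.6 in RA-sufficient PL and 161, 176 and 137 in RA-deficient PL. The groups formed separate steps, with In/B lowest and RA-deficient PL highest, and the changes from In/B were 1.37 ± 0.19 (adjusted p = 0.000311) and 2.88 ± 0.20 (adjusted p = 6.90e-05). Mad2l1, which encodes MAD2, was at 118, 141 and 148 CPM in In/B, 56.7, 76.5 and 75.3 in RA-sufficient PL and 70.7, 80.4 and 59.1 in RA-deficient PL. It was lower in all PL libraries but within the fold limit (-0.91 ± 0.15, adjusted p = 0.000941, and -0.78 ± 0.16, adjusted p = 0.0071). Bub1b, which encodes BUBR1, the part of the checkpoint complex that blocks CDC20, was at 218, 169 and 163 CPM in In/B, 74.4, 69.6 and 71.6 in RA-sufficient PL and 98.8, 98.7 and 87.8 in RA-deficient PL. It fell in RA-sufficient PL (-1.30 ± 0.15), and in RA-deficient PL the difference of -0.78 ± 0.16 (adjusted p = 0.0062) was within the fold limit. Ttk, which encodes the MPS1 kinase that starts checkpoint signalling, was at 142, 155 and 166 CPM in In/B, 49.2, 55.05 and 50.9 in RA-sufficient PL and 57.9, 61.5 and 47.4 in RA-deficient PL. It fell in both groups (-1.52 ± 0.12 and -1.31 ± 0.15), and so did Bub3, the partner of BUB1 and BUBR1 (-1.48 ± 0.15 and -1.76 ± 0.18).

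The centromere proteins held the largest falls after those of Aurkb and also 3 of the rises. Of 9 genes, 2 rose and 2 fell in RA-sufficient PL (22.2% each), which is near the 26.1% and 19.3% of all genes. In RA-deficient PL 3 rose and 2 fell (33.3% and 22.2%, against 11.4% and 11.8%). Cenpa, the histone H3 variant that marks the centromere, was at 66.4, 62.8 and 61.4 CPM in In/B, 3.09, 9.46 and 8.03 in RA-sufficient PL and 9.48, 5.86 and 5.16 in RA-deficient PL. The PL libraries did not overlap with In/B, and the changes were -3.14 ± 0.36 (adjusted p = 0.000113) and -3.05 ± 0.27 (adjusted p = 0.000161). Cenpi, of the inner kinetochore, also fell in both (-1.56 ± 0.15 and -1.34 ± 0.19). Cenpm, another inner kinetochore gene, was at 21.8, 25.6 and 25.3 CPM in In/B, 40.2, 58.3 and 64.7 in RA-sufficient PL and 71.7, 98.8 and 103 in RA-deficient PL. It rose in both, by 1.22 ± 0.20 (adjusted p = 0.000787) and 2.08 ± 0.19 (adjusted p = 0.000188). Cenpk rose in both as well (1.17 ± 0.26 and 1.10 ± 0.26), a call that was lost in both groups without the first In/B library, and in the RA-deficient group also with library totals alone, when all 9 libraries were fitted together and without the third RA-deficient library. Cenpf, a large protein of the outer kinetochore and nuclear matrix, was at 722, 644 and 617 CPM in In/B, 594, 1301 and 1175 in RA-sufficient PL and 1589.8, 1506 and 2468 in RA-deficient PL. It rose in RA-deficient PL (1.65 ± 0.19, adjusted p = 0.000525), while the RA-sufficient libraries overlapped with In/B (0.68 ± 0.26, adjusted p = 0.042). Cenpe, a kinetochore motor that moves chromosomes to the metaphase plate, was at 340.4, 291 and 281 CPM in In/B, 132, 222 and 197 in RA-sufficient PL and 251, 235 and 258 in RA-deficient PL, with changes of -0.67 ± 0.19 and -0.13 ± 0.12 that were not called. Cenph, Cenpl and Cenpn ranged from -0.56 to 0.18 in RA-sufficient PL and from -0.36 to 0.16 in RA-deficient PL, and none of them passed.

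In the outer kinetochore, 0 of 5 genes rose in either group, 2 fell in RA-sufficient PL (40.0%) and 1 fell in RA-deficient PL (20%), against 19.3% and 11.8% of all genes. Ndc80, which binds microtubules, was at 108, 98.5 and 92.8 CPM in In/B, 30.7, 37.6 and 42.1 in RA-sufficient PL and 41.5, 48.2 and 35.2 in RA-deficient PL. It fell in both groups (-1.38 ± 0.16, adjusted p = 0.000113, and -1.10 ± 0.17, adjusted p = 0.002), the second short of the fold limit without the third RA-deficient library (-0.98). Spc24, of the same complex, was at 50.04, 63.2 and 55.9 CPM in In/B, 21.9, 15.7 and 21.7 in RA-sufficient PL and 60.02, 42.2 and 29.6 in RA-deficient PL. The RA-sufficient libraries were below all others (-1.46 ± 0.18 from In/B), and the RA-deficient ones overlapped with In/B (-0.19 ± 0.26, adjusted p = 0.61). Nuf2, Spc25 and Zwint had changes between -0.54 and -0.42 in RA-sufficient PL and between -0.88 and -0.24 in RA-deficient PL, all within the fold limit.

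Of 8 genes of the spindle and cytokinesis, Ckap2, Nusap1 and Anln fell and 0 rose in RA-sufficient PL (37.5% falling, against 19.3% of all genes). In RA-deficient PL Ckap2 fell and 0 rose (12.5%, near the 11.8% of all genes). Ckap2, a spindle protein, had the largest falls of the group (-1.74 ± 0.12 and -1.46 ± 0.18). Prc1, which bundles the microtubules of the central spindle, was at 292, 243 and 237 CPM in In/B, 137, 126 and 121 in RA-sufficient PL and 164, 172 and 197 in RA-deficient PL. Its change of -0.96 ± 0.13 (adjusted p = 0.00025) in RA-sufficient PL was just within the fold limit, and in RA-deficient PL it was -0.37 ± 0.14 (adjusted p = 0.07). Ect2, the exchange factor that sets the cleavage furrow, was at 151, 202 and 203 CPM in In/B, 149, 210.3 and 212 in RA-sufficient PL and 245, 291 and 288 in RA-deficient PL. The RA-sufficient libraries overlapped with In/B (0.09 ± 0.17), and the RA-deficient libraries lay above In/B within the fold limit (0.74 ± 0.14, adjusted p = 0.0056). Tpx2, an activator of Aurora A, was within the fold limit too (-0.14 ± 0.10 and 0.71 ± 0.10). The changes of Racgap1, the partner of ECT2 at the central spindle, and Hmmr, a spindle assembly factor, were 0.06 and 0.09 in RA-sufficient PL and 0.37 and 0.16 in RA-deficient PL, and neither was called.

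Among genes of condensin and chromosome structure, 2 of 7 fell and 0 rose in RA-sufficient PL (28.6% falling, against 19.3% of all genes). In RA-deficient PL 1 fell and 2 rose (14.3% and 28.6%, against 11.8% and 11.4%). Ncaph, the kleisin subunit of condensin I (its values are given because they were seen to be large), was at 92.03, 111 and 105 CPM in In/B, 18.1, 22.8 and 25.5 in RA-sufficient PL and 30.99, 30.2 and 33.9 in RA-deficient PL. It fell in both groups, with log2 fold changes of -2.16 ± 0.17 (adjusted p = 2.09e-05) and -1.53 ± 0.15 (adjusted p = 0.000225). Ncapg, another condensin I subunit, was at 96.8, 152 and 134 CPM in In/B, 149, 222 and 242 in RA-sufficient PL and 238, 247 and 245 in RA-deficient PL. It rose in RA-deficient PL (1.10 ± 0.16, adjusted p = 0.0014), and in RA-sufficient PL the change was 0.74 ± 0.21 (adjusted p = 0.013). Exons of Ncapg share 942 bases (13.34% of its exonic length) with Lcorl on the other strand. Smc2, a core ATPase of both condensins, was at 276, 306 and 313 CPM in In/B, 103, 139 and 127 in RA-sufficient PL and 173, 146 and 185 in RA-deficient PL. It fell in RA-sufficient PL (-1.22 ± 0.13), and in RA-deficient PL the change was -0.66 ± 0.12 (adjusted p = 0.0046). Its partner Smc4 and the condensin I subunit Ncapd2 were not called (0.18 ± 0.16 and -0.13 ± 0.18 in RA-sufficient PL, 0.58 ± 0.17 and 0.66 ± 0.21 in RA-deficient PL). Top2a, the topoisomerase that untangles sister chromatids, was at 1046, 1269 and 1228 CPM in In/B, 1040.3, 1544 and 1567 in RA-sufficient PL and 2078, 2135 and 2557 in RA-deficient PL. The RA-deficient libraries were above all others (1.10 ± 0.11 from In/B, adjusted p = 0.000297), and the RA-sufficient ones overlapped with In/B (0.28 ± 0.17). The calls of Top2a and Ncapg in RA-deficient PL were short of the fold limit with library totals alone (0.79 and 0.79) and when all 9 libraries were fitted together, and that of Ncapg also without the first In/B library (0.94). Mki67, which coats mitotic chromosomes and is used as a mark of proliferation, was at 1401, 1934 and 1927 CPM in In/B, 722, 1635 and 1508 in RA-sufficient PL and 1508, 1445 and 2832 in RA-deficient PL. The groups overlapped, and the changes of -0.39 ± 0.28 and 0.31 ± 0.26 were not called.

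The second question was whether PL spermatocytes with and without RA differed. In the direct comparison of RA-deficient with RA-sufficient PL, 3 members were higher (Mad1l1, Spc24 and Ube2c) and 2 were lower (Aurka and Cdk1), while 4.47% of the 15352 genes tested were higher and 11.05% lower. With the adjusted p alone, 13 members were higher and 2 lower, against 11.03% and 12.6% of all genes. All RA-deficient libraries lay above all RA-sufficient ones for 22 members (background 20.1%) and below them for 4 (background 27.3%). The median log2 difference of the members was 0.23, against -0.09 over all genes, and with library totals alone 0.04 against -0.27. The members' sum was 6984, 9970.4 and 9899.8 CPM in RA-sufficient PL and 11471, 11462 and 15319.8 in RA-deficient PL, with the first RA-sufficient library lowest and the third RA-deficient library highest. Sertoli cell markers also separated these groups, and so did markers of undifferentiated spermatogonia, which were higher in every RA-deficient library. The 4 germ cell markers did so too, with sums of 2270 to 2646 CPM in RA-sufficient PL and 4185 to 5214 in RA-deficient PL. Markers of differentiating spermatogonia were higher in the first and second RA-deficient libraries, as given above. Of the sums for pachytene and later cells, 610 and 684 CPM in RA-deficient PL were below all RA-sufficient ones. The value of 1237 CPM was within the RA-sufficient range. The part of any of these cells was not tested.

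**Figure D4:**
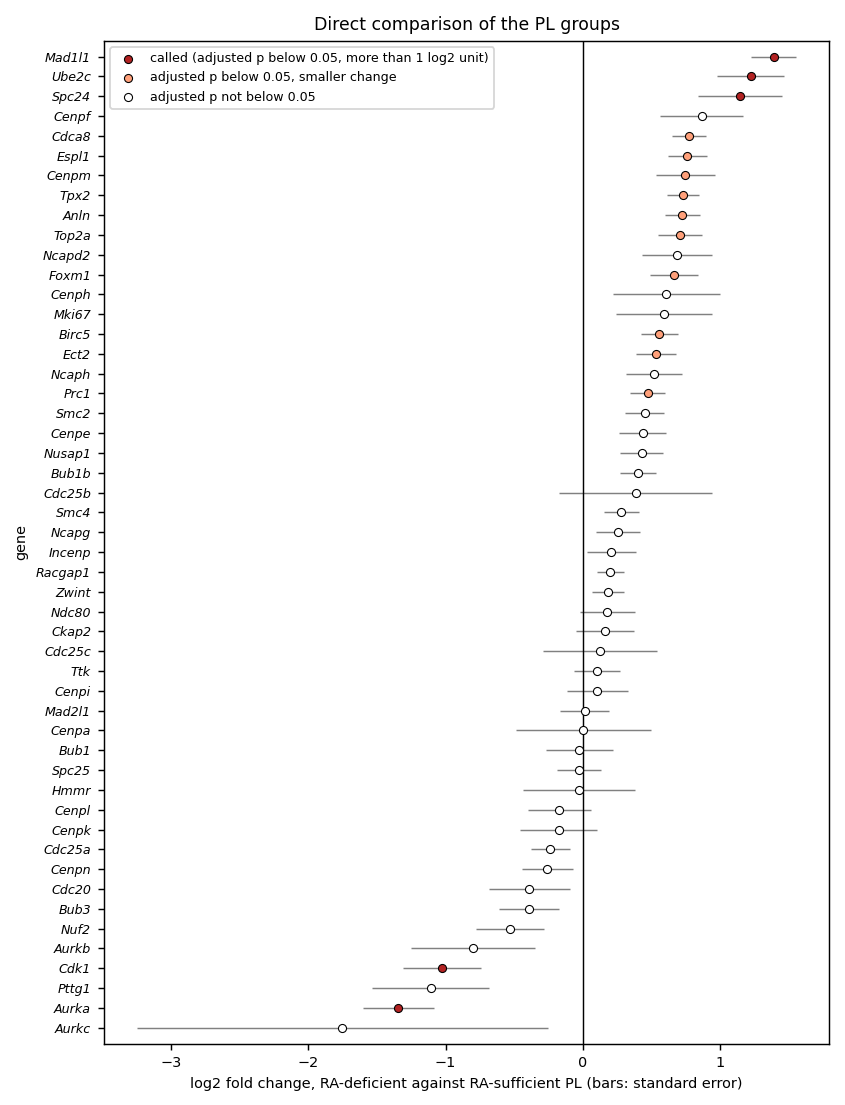
Log2 fold change of each member in RA-deficient against RA-sufficient PL, with standard errors as bars, ordered by size. Dark red points were called (adjusted p below 0.05 and beyond 1 log2 unit), orange points passed the adjusted p alone. Of the 50 points 35 lie right of 0, most of them within 1 log2 unit. Over all genes tested, 7072 of 15352 differences were positive.

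Mad1l1 had the highest difference, 1.39 ± 0.16 (adjusted p = 0.0024), and kept its call in every alternative run. Ube2c was higher by 1.22 ± 0.24 (adjusted p = 0.013), a call lost without the third RA-sufficient library (adjusted p = 0.054). Spc24 was higher by 1.15 ± 0.31 (adjusted p = 0.034), but lost its call with library totals alone and when any library other than the third RA-deficient one was left out, the latter with differences of 0.87 to 1.26 and adjusted p-values of 0.069 to 0.12. Aurka was lower, at -1.34 ± 0.26 (adjusted p = 0.012), and Cdk1 at -1.03 ± 0.28 (adjusted p = 0.037). The call of Cdk1 was lost when any library other than the third RA-deficient one was left out, and when all 9 libraries were fitted together, by the fold limit. Without the third RA-deficient library 3 members were higher and 4 lower, Pttg1 (-1.55) and Aurkc (-5.53) being added. Genes called then numbered 4484 of 15799, against 2383 of 15352 with all libraries.

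The members that were higher with the adjusted p alone were Anln, Birc5, Cdca8, Cenpm, Ect2, Espl1, Foxm1, Prc1, Top2a and Tpx2, beside the 3 that were called. The largest of these 10 differences were those of Cdca8 (0.77 ± 0.12, adjusted p = 0.0061), Espl1 (0.76 ± 0.14, adjusted p = 0.011) and Cenpm (0.75 ± 0.22, adjusted p = 0.044). All 7 genes of condensin and chromosome structure had positive differences, from 0.26 to 0.71, and 0 of them were called. Of the genes of the spindle and cytokinesis, 7 of 8 had positive differences and 0 were called. Over all genes tested, 7072 of 15352 differences were positive. These signs depend on the scaling, since the median of the members was 0.23 with TMM and 0.04 with library totals alone. Several genes called lower in both PL groups had small differences between them, such as Cenpa (0.00 ± 0.49), Ttk (0.10 ± 0.17) and Ndc80 (0.18 ± 0.20).

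Partners of the same complex were set against each other per kb of exon, in pairs picked after their values were seen, so the ratios are a description with no test. The ratio of Ncaph to Ncapg was 1.64, 1.26 and 1.35 in In/B, 0.209, 0.177 and 0.181 in RA-sufficient PL and 0.224, 0.211 and 0.238 in RA-deficient PL. The ratio was thus lower in every PL library than in every In/B library. Which partner stands higher within a group depends on the exonic lengths used. For Aurkb over Cdca8 the ratio was 1.52, 1.43 and 1.66 in In/B, 0.131, 0.273 and 0.156 in RA-sufficient PL and 0.0758, 0.0332 and 0.0745 in RA-deficient PL. For Incenp over Cdca8 it was 5.03, 4.60 and 5.58 in In/B, 0.886, 1.51 and 1.24 in RA-sufficient PL and 0.943, 0.841 and 0.665 in RA-deficient PL. Both fell with no overlap between In/B and PL. Bub1b over Bub1 was 0.963, 0.692 and 0.658 in In/B, 0.157, 0.0915 and 0.0855 in RA-sufficient PL and 0.173, 0.177 and 0.0974 in RA-deficient PL. Mad2l1 over Mad1l1 was 6.74, 11.4 and 10.7 in In/B, 1.39, 2.35 and 2.13 in RA-sufficient PL and 0.728, 0.755 and 0.713 in RA-deficient PL. In both checkpoint pairs the In/B libraries were highest, and in the second the RA-deficient libraries were lowest, without overlap. Within the NDC80 complex, Ndc80 over Nuf2 was 1.32, 1.10 and 1.09 in In/B, 0.659, 0.602 and 0.606 in RA-sufficient PL and 1.33, 1.30 and 0.635 in RA-deficient PL. Here the first and second RA-deficient libraries were at the top of the In/B values or just above them, and the third was among the RA-sufficient ones. Pttg1 over Espl1 was 0.406, 0.319 and 0.363 in In/B, 0.707, 0.467 and 0.377 in RA-sufficient PL and 0.0781, 0.110 and 0.274 in RA-deficient PL, with every RA-deficient library below every In/B library.

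**Figure D5:**
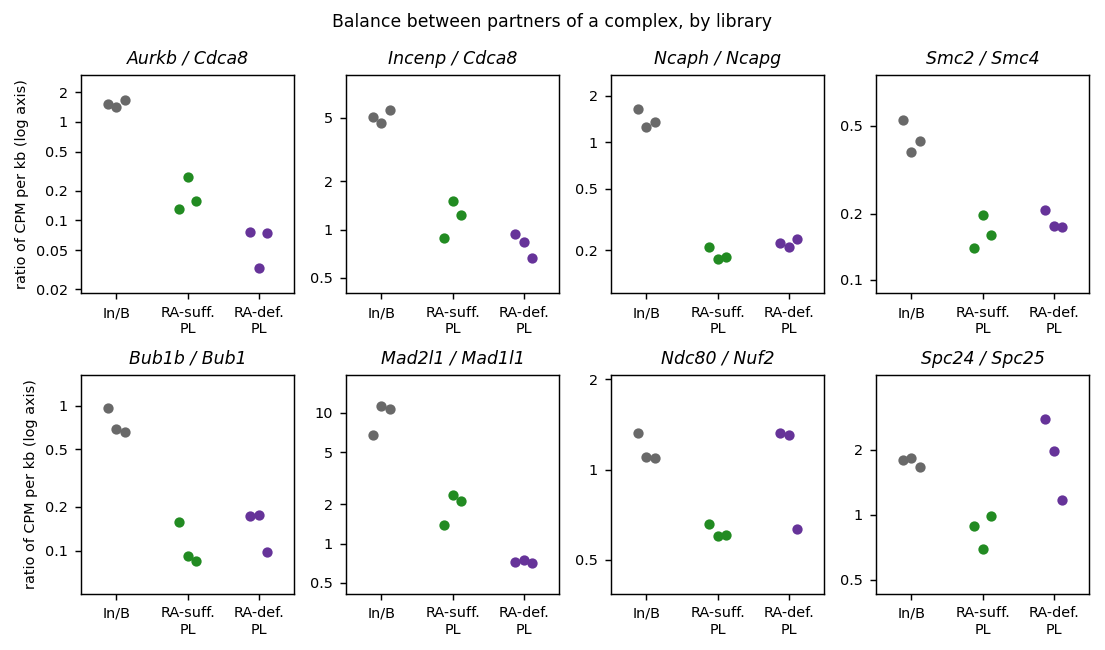
Ratio of CPM per kb between partners of a complex in each library (points), on log axes, for In/B (grey), RA-sufficient PL (green) and RA-deficient PL (purple). In the passenger complex and condensin pairs and the checkpoint pairs all PL points lie below all In/B points, and in Ndc80 over Nuf2 1 RA-deficient library lies apart from the other two.

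Levels were compared between genes per kb of exon. The annotation behind the counts is not given, so the order of genes depends on the exonic lengths used here (GENCODE M1). In In/B the highest mean levels were those of Mki67 (174 ± 30.3 CPM per kb, SD, n = 3), Top2a (130.2 ± 13.1) and Incenp (126 ± 4.66), whose ranges overlapped between neighbours in this order. In RA-sufficient PL they were Bub1 (161 ± 44.7) and Top2a (153 ± 32.8), which did not differ beyond their spread. In RA-deficient PL, Top2a was highest (249 ± 28.9), followed by Mki67 (191 ± 77.7), with overlapping libraries. The lowest were Aurkc in In/B (1.12 ± 0.169) and RA-deficient PL (1.27 ± 2.06), and Cenpa in RA-sufficient PL (2.74 ± 1.33).

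The genes lie on many chromosomes and share no single locus. In mm9, Aurkb lies at chr11:68859149-68865166, Cenpa at chr5:30969150-30977200, Ube2c at chr2:164595398-164604322, Ncaph at chr2:126929545-126959690, Bub1 at chr2:127626858-127657601 and Mad1l1 at chr5:140484643-140797506 (GENCODE M1). Bub1, Ube2c and Ncaph are thus on the same chromosome but far apart. By promoter letters, TTTGAA stood in 12 of 17 members that fell in RA-sufficient PL and had a window (70.6%), in 14 of 21 that were not called (66.7%) and in 0 of 5 that rose. By calls in RA-deficient PL it stood in 9 of 12 that fell, 14 of 24 that were not called (58.3%) and 3 of 7 that rose (42.9%), the last being Cenpf, Ncapg and Top2a. CCAAT stood in 4 of the 5 windows of genes that rose in RA-sufficient PL, with Mad1l1 the exception, and in 12 of 17 that fell. Either CHR form stood in 13 of 17 that fell in RA-sufficient PL (76.5%), 16 of 21 not called (76.2%) and 0 of 5 that rose. The share was thus alike in members that fell and members not called. By calls in RA-deficient PL it stood in 9 of 12 that fell, 17 of 24 not called and 3 of 7 that rose. A match is a description of letters in these windows and not of a site in use.

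Other genes of the same pathways, 91 in 6 lists that hold no member, were read from the same fits. In RA-sufficient PL 5 rose and 36 fell (5.49% and 39.6%, against 26.1% and 19.3% of all genes), with a median log2 fold change of -0.56. In RA-deficient PL 6 rose and 26 fell (6.59% and 28.6%, against 11.4% and 11.8%), with a median of -0.17. Against RA-sufficient PL, 6 were higher and 2 lower in RA-deficient PL (6.59% and 2.20%, against 4.47% and 11.05%), with a median of 0.33. In RA-sufficient PL, 4 of 16 APC/C subunits and regulators fell, as did 9 of 29 other kinetochore genes, 1 of 3 condensin II subunits, 14 of 26 other mitotic genes, 7 of 13 regulators of mitotic genes and 1 of 4 cohesion regulators. The shares of the APC/C genes and the cohesion regulators (25% each) were near the 19.3% of all genes. In RA-deficient PL the falls in the same order numbered 3, 7, 0, 9, 6 and 1. Of each list, the called gene with the lowest p in RA-sufficient PL was Cdc23 (-1.76), Sgol1 (-2.46), Ncaph2 (-1.40), Trip13 (-2.11), Nfyb (-2.62) and Rad21 (-1.43). In RA-deficient PL these were Cdc27 (-1.17), Ska1 (-2.94), Ncapg2 (1.08), Gtse1 (-2.20), E2f7 (-2.46) and Rad21 (-1.34). Sgol1 encodes shugoshin, which protects centromeric cohesin, and Rad21 the mitotic cohesin kleisin. In condensin II, Ncaph2 fell in RA-sufficient PL, where 0 of the 3 subunits rose. Ncapg2 rose in RA-deficient PL, where 0 of the 3 fell. Between the PL groups, Numa1, a spindle pole protein, was higher in RA-deficient PL (1.02), as was E2f7, a repressor of cell cycle genes (1.10), whereas Cenpb, a centromere DNA-binding protein, was lower (-2.70).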

How the data were processed

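mRNA of sorted cells was measured in 9 libraries, 3 per group. The authors deposited raw counts per gene in 1 table, after trimming reads of stranded libraries with cutadapt 1.9, aligning to mm9 with STAR 2.5.2b and counting with featureCounts. The annotation and strand setting are not given in the sources used here, so reads of neighbours that overlap in antisense may be counted for either gene. The study describes 2 or 3 independent cell preparations, and p-values measure the spread between libraries, which may in part be technical.

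Pairs of groups were fitted with edgeR 4.0.16 in R 4.3.3 (TMM, filterByExpr, group only) by the quasi-likelihood test, adjusted by Benjamini-Hochberg over all genes tested, and called by fold (log2 beyond 1) and adjusted p (below 0.05). CPM used TMM over all libraries, and CPM per kb the GENCODE M1 exonic length. Scripts were tested on simulated data. The alternatives were RLE scaling, library totals alone, no filter, a mean of at least 50 counts, a single fit, a replicate block, DESeq2 1.42.0, both other thresholds and leaving out each library.

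Members and lists were chosen with earlier results of these data known. Values in every library were given for 25 genes fixed by role and up to 3 called members of largest change per direction and comparison, and each other list by its called gene with the lowest p. At these depths 3 counts are 0.113 to 0.221 CPM, which covers counting error only.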

Additional observations from a re-analysis of the deposited data

Results flagged for a closer look

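Between the PL groups, 5 members differed in the direct test of that difference (edgeR, quasi-likelihood, Benjamini-Hochberg adjusted). They were 3 higher (6.00%) and 2 lower (4.00%) in RA-deficient PL, against 4.47% and 11.05% of all genes. The share higher was near that of all genes, and the share lower was below it. The log2 differences of RA-deficient from RA-sufficient PL were 1.39 for Mad1l1, 1.22 for Ube2c, 1.15 for Spc24, -1.34 for Aurka and -1.03 for Cdk1. The calls of Spc24 and Cdk1 were lost when any library other than the third RA-deficient one was left out. Ube2c lost its call without the third RA-sufficient library. An adjusted p of at most 0.01 left 1 member. For each of these genes all 3 libraries of one group lay beyond all 3 of the other. Of all genes, 20.1% lay higher and 27.3% lower in RA-deficient PL in this way. These 5 members were picked by their calls in the same comparison, so the lack of overlap adds no support. Sertoli cell markers were higher in every RA-sufficient library, and markers of undifferentiated spermatogonia in every RA-deficient library. The sum of the 4 germ cell markers was also higher in every RA-deficient library. Markers of differentiating spermatogonia were higher in the first and second RA-deficient libraries. Markers of pachytene and later cells summed to 1865, 874 and 958 CPM in RA-sufficient PL and to 610, 684 and 1237 in RA-deficient PL. The part of any of these cells in these differences was not tested. Groups of 3 are too small for a test of single outlying libraries.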

How the results depend on the processing

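The counts of called members from In/B stayed within 1.5 times under each refit and each library left out (26 to 29 in RA-sufficient PL, 20 to 24 in RA-deficient PL). In the same runs 5488 to 7305 genes were called of 12452 to 20070 tested in RA-sufficient PL. In RA-deficient PL 2639 to 3995 were called of 12101 to 19189 tested. With the adjusted p alone, 35 members passed in RA-deficient PL against In/B and 15 in the direct comparison, where an adjusted p of at most 0.01 left 1. Over all genes these counts were 5459 of 14877, 3629 of 15352 and 973 of 15352. The direct comparison called 5 members in all, and 2 to 7 with a library left out, 2 being without the third RA-sufficient library and 7 without the third RA-deficient one. Over all genes it called 2383 of 15352, and 1283 of 15839 and 4484 of 15799 without these libraries in the same order. Library totals alone moved the median of all genes by over 0.1, to -0.31 (RA-deficient PL against In/B) and -0.27 (direct), and that of the members to -0.69 and 0.04. They turned the sign of Mki67 (-0.012), Cenph, Cenpn and Hmmr in RA-deficient PL and, in the direct comparison, of Ttk (-0.078), Cenpa (-0.18), Ndc80 (-0.0063), Cenpi (-0.081), Ckap2 (-0.019), Cdc25c (-0.065) and Mad2l1 (-0.17), none of them called. With these totals Bub1b, Mad2l1, Nuf2, Foxm1 and Nusap1 were called lower in RA-deficient PL as well. The direct difference of Cenpa, near 0, was -0.0075 with no filter, -0.0066 with a mean of at least 50 counts and -0.0013 with DESeq2. With a library left out, changes that were not called crossed 0 for Ect2 (-0.037 to 0.23), Hmmr (-0.19 to 0.36) and Ncapd2 (-0.25 to 0.054) in RA-sufficient PL. They did so for Mki67 (-0.074 to 0.44), Aurkc (-3.48 to 0.88), Cenph (-0.12 to 0.51), Cenpn (-0.16 to 0.15), Spc24 (-0.50 to 0.031) and Hmmr (-0.35 to 0.34) in RA-deficient PL, and for Bub1 (-0.28 to 0.11), Spc25 (-0.094 to 0.048), Hmmr (-0.54 to 0.23), Cenpa (-0.34 to 0.30), Cdc25c (-0.14 to 0.35), Cdc25b (-0.012 to 0.83) and Mad2l1 (-0.095 to 0.13) in the direct comparison. Leaving out 1 library also added calls from In/B, of Mad2l1 (-1.001), Pttg1 (-1.04) and Prc1 (to -1.03) in RA-sufficient PL and of Nuf2 (-1.15) and Foxm1 (-1.02) in RA-deficient PL. The cause was not tested. The replicate numbers did not pair the libraries (r of deviations between -0.28 and 0.15). With the replicate block, 27, 22 and 4 members were called in the 3 comparisons in the order above, Cdk1 being lost in the last (adjusted p = 0.056), and Aurkc in RA-deficient PL was at -1.96. Genes called with this block numbered 6373 of 15001, 3208 of 14877 and 1765 of 15352. Aurkc had few counts, at most 26 in an In/B library, 80 in an RA-sufficient PL library and 79 in an RA-deficient PL library. The RA-deficient libraries had totals of 25048240 to 27042274, and the cause of their spread in Aurkc was not tested.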

Other observations

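Among 13 regulators of mitotic genes, 7 fell and 2 rose in RA-sufficient PL (19.3% and 26.1% of all genes), and 6 fell and 1 rose in RA-deficient PL (11.8% and 11.4%). The genes below were picked after their values were seen. Mybl2, which encodes the B-MYB partner of the MuvB complex, was at 82.97, 90.3 and 86.4 CPM in In/B, 12.3, 18.3 and 14.4 in RA-sufficient PL and 38.99, 36.9 and 11.6 in RA-deficient PL. E2f8, a repressor of the E2F family, was at 57.8, 38.3 and 47.7 CPM in In/B, 13.4, 14.1 and 9.93 in RA-sufficient PL and 7.60, 9.63 and 15.8 in RA-deficient PL. Both fell in RA-sufficient PL (-2.47 ± 0.18 and -1.89 ± 0.23) and in RA-deficient PL (-1.40 ± 0.40 and -1.96 ± 0.32), with the third RA-deficient library of Mybl2 at the level of the RA-sufficient ones. Nfyb, a subunit of the factor that binds CCAAT, was at 96.00, 106 and 95.1 CPM in In/B, 13.4, 17.1 and 15.8 in RA-sufficient PL and 22.6, 29.1 and 15.3 in RA-deficient PL, and fell in both PL groups (-2.62 ± 0.15 and -1.98 ± 0.24). Its partners Nfya and Nfyc were not called in either PL group. Lin9, a core MuvB subunit, was at 27.4, 41.3 and 40.9 CPM in In/B, 70.9, 96.1 and 95.1 in RA-sufficient PL and 79.9, 92.3 and 114 in RA-deficient PL, and rose in both (1.31 ± 0.20 and 1.55 ± 0.21).

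Meikin, a kinetochore protein of meiosis I, was at 0.447, 1.78 and 1.58 CPM in In/B, 7.36, 6.97 and 6.93 in RA-sufficient PL and 5.04, 6.06 and 10.01 in RA-deficient PL. It rose from a level near 1.00 CPM in both PL groups (2.52 ± 0.47, adjusted p = 0.0016, and 2.64 ± 0.63, adjusted p = 0.013). Gsg2, which encodes the haspin kinase that recruits the passenger complex to centromeres, was at 22.1, 32.6 and 26.8 CPM in In/B, 127, 80.9 and 68.1 in RA-sufficient PL and 14.4, 15.4 and 34.9 in RA-deficient PL. It rose in RA-sufficient PL (1.82 ± 0.25) and was lower in RA-deficient than in RA-sufficient PL (-2.11 ± 0.42, adjusted p = 0.013). The part of Sertoli cell RNA, and of RNA from pachytene and later cells, in these values was not tested.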
